A study of Mus musculus with 312 samples.

Results

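The 10 genes described here, of 25136 genes used, serve milk fat and lipid synthesis: Plin2, Xdh, Btn1a1, Lpl, Cd36, Fabp3, Acly, Fasn, Scd1 and Scd2. They were chosen by name and looked up by the symbol of their Entrez identifier, and all 10 were present. RNA was measured in 312 single cells labelled as basal cells of the mammary gland of FVB/NJ mice, 237 from adult and 75 from pregnant animals. Cells were captured on the Fluidigm C1, which isolates each cell in a chamber and makes cDNA from it. Among the adult cells, 112 carry a mark (2) in their title (marked adult cells) and 125 do not (unmarked adult cells). The labels do not explain the mark, tie no cell to an animal and give the age only as adult or pregnancy, and no treatment or transgene is recorded for any group. The study sorted adult basal cells by surface markers (Lin-CD29hi CD24+) but lists its C1 pregnancy cells only as total epithelium at mid-pregnancy. Whether the 75 cells here belong to that set is not stated, so that they were sorted as basal rests on the label.

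Milk fat is made in the luminal cells that line the alveoli, while basal cells form the contractile layer around them. Fatty acids are either taken up from the blood or built from citrate within the cell, desaturated, joined into triglycerides and stored in lipid droplets. In lactation these droplets leave the cell wrapped in membrane, in a complex that holds the droplet protein perilipin 2 (Plin2), xanthine dehydrogenase (Xdh) and butyrophilin (Btn1a1).

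After a filter of at least 50000 assigned reads and 1000 genes per cell, 81 marked adult, 58 unmarked adult and 71 pregnancy cells were retained. Assigned reads are read pairs in the 25136 genes, and their medians were 174910 in marked adult, 101320 in unmarked adult and 230645 in pregnancy cells. At an equal depth of 50000 reads, the median cell held 2314, 2201 and 3210 genes in the same order, so that genes in general were found more often in pregnancy cells. The labelled identity was checked on 11 core basal genes, namely Krt14, Krt5, Krt17, Acta2, Myh11, Mylk, Myl9, Cnn1, Tagln, Trp63 and Cxcl14. At least 6 of them reached 100 CPM, reads scaled to 1000000 assigned reads of the cell, in 76 of 81 marked adult, 51 of 58 unmarked adult and 70 of 71 pregnancy cells. Pregnancy cell 71 was the exception in its group. It had 5 core basal, 5 of 7 pan-luminal and 5 of 7 milk protein genes at that level, and results are given with and without it. Of the 7 pan-luminal genes, at least 3 reached 100 CPM in 5 marked adult, 3 unmarked adult and 3 pregnancy cells, and of the 7 milk protein genes in 0, 4 and 4 cells. Of 8 pericyte genes, at least 3 did so in 2, 0 and 0 cells. Marked adult cell 102 had 8 core basal and 5 pericyte genes at 100 CPM, so a cell with pericyte genes can meet the limit of 6. The lowest value of every member was 0 CPM in each group. Each group was treated as 1 sample because no animals are named, so no difference below has a replicate check, a test or a p-value. Intervals are exact 95% intervals and cover counting error only.

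The main measure set the mean CPM of pregnancy cells against that of each adult set, as a log2 ratio with 10 CPM added to each mean. A gene counted as past the fold if the ratio was at least 1 in size (2-fold) with the same sign against both adult sets. Of the 10 members, 9 reached a mean of 10 CPM in adult or pregnancy cells, and Btn1a1 did not. Plin2 was past the fold as higher in pregnancy, against 9.83% of the 9306 genes tested, and Cd36 as lower, against 4.72%. Both kept these places without cell 71, where the background was 9.81% higher and 4.85% lower. A count of 1 of 9 in each direction is near what the background gives. Each of these results was carried by few cells, as described with each gene.

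**Figure D1:**
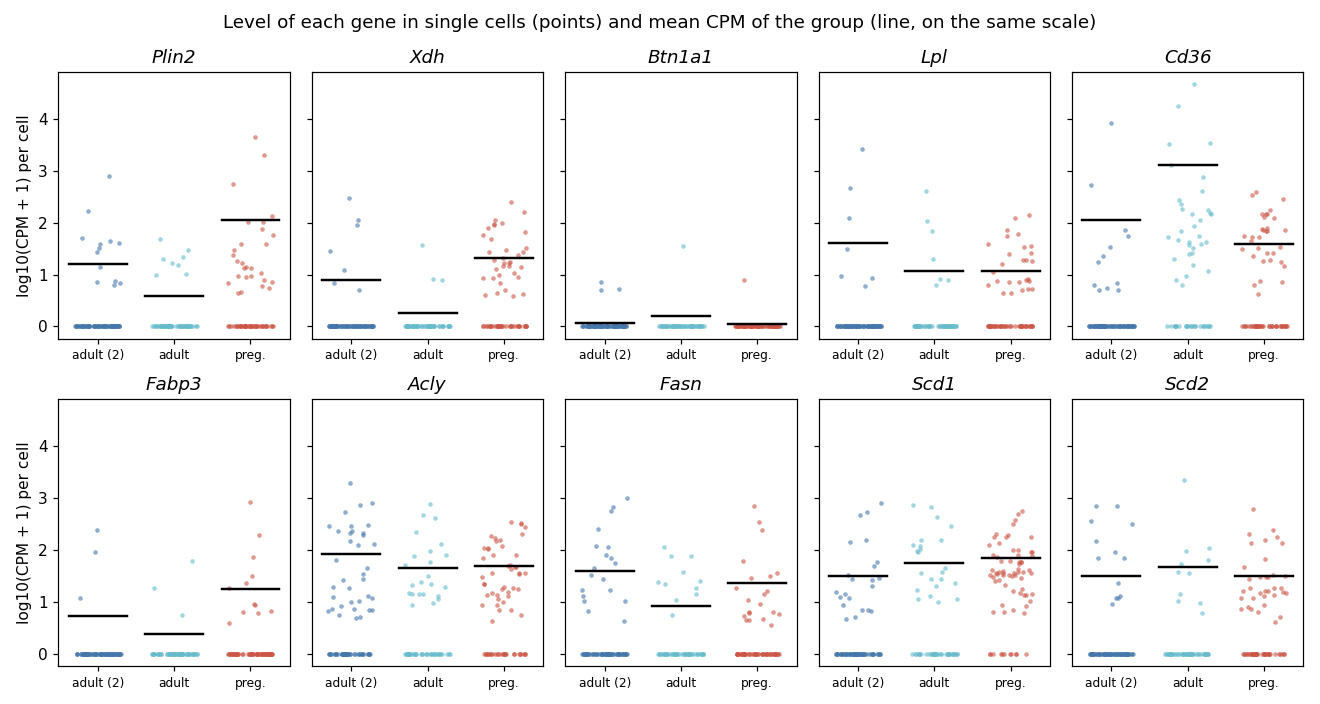
Level of each of the 10 genes in every retained cell, as log10 of CPM plus 1, in 81 marked adult (adult (2)), 58 unmarked adult (adult) and 71 pregnancy cells (preg.), with a black line at the mean CPM of the group on the same scale. Most cells sit at 0 for most genes, and single cells far above the rest set the means of Plin2 in pregnancy and of Cd36 in adult cells.

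The second measure was the share of cells with at least 1 read of a gene after each cell was thinned to 50000 reads. For Xdh and Scd1, and for no other member, the interval of this share in pregnancy lay above the intervals of both adult sets. These were 2 of the 9 members tested, against 10.5% of the 9306 genes. No member had a pregnancy interval wholly below both adult intervals, which was the case for 0.258% of genes. Without cell 71 the same 2 members were apart, against 10.6% of genes above and 0.269% below. Over the 9 tested members, the median share was 8.64% in marked adult, 15.5% in unmarked adult and 29.6% in pregnancy cells, beside 16.0%, 17.2% and 23.9% over all genes tested.

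**Figure D2:**
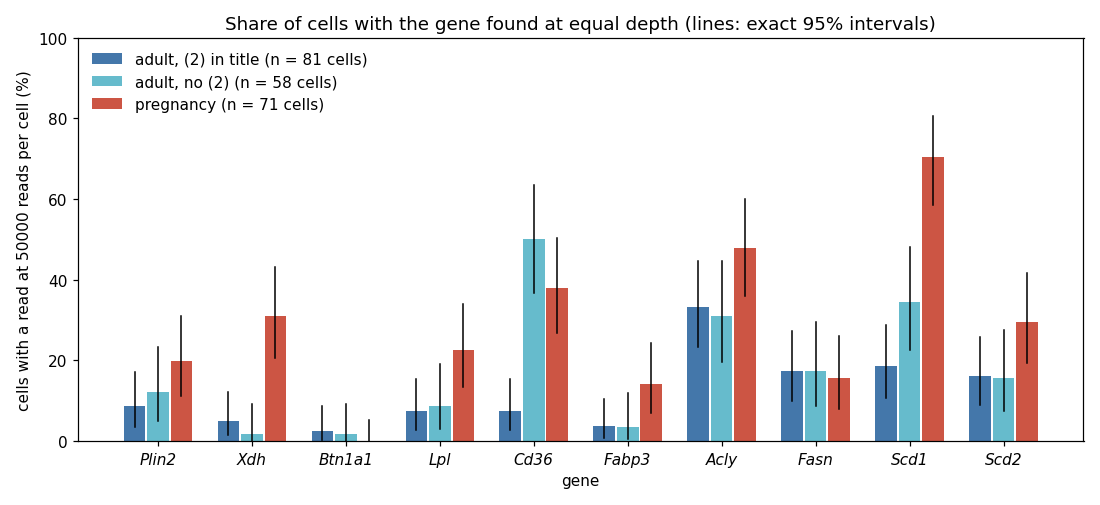
Share of retained cells with at least 1 read of each gene after thinning to 50000 reads per cell, in percent, for marked adult (dark blue), unmarked adult (light blue) and pregnancy cells (red), with exact 95% intervals as lines. Scd1 was found in 70.4% of pregnancy cells and Xdh in 31.0%, and for these 2 genes the pregnancy interval lies above both adult intervals.

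Plin2 (Entrez 11520, chr4:86626910-86670217 in GRCm38) encodes the protein that coats the lipid droplets of most cell types. Its level was 0 in the median cell of every group. The highest values were 796 CPM in marked adult cells (cell 29), 46.3 CPM in unmarked adult cells (cell 158) and 4415 CPM in pregnancy cells (cell 71). The means were 15.1, 2.80 and 109 CPM. Thus most of the pregnancy signal came from a single cell, since cell 71 held 57.0% of the summed CPM of its group, and cell 54, at 2039 CPM, held 61.1% of what was left. The log2 ratio was 2.24 over marked and 3.22 over unmarked adult cells. Without cell 71 it was 1.20 and 2.17. Without cells 71 and 54 it was 0.19 and 1.17, so that the gene was no longer past the fold over the marked set. That setting kept the highest adult cells. Without the highest cell of each group the means were 5.37 CPM in marked adult, 2.03 CPM in unmarked adult and 47.6 CPM in pregnancy cells, and Plin2 stayed past the fold. Cells 71 and 54 were unlike each other. Cell 54 had 10 of 11 core basal genes and 0 pan-luminal or milk protein genes at 100 CPM, and 5.16% of all its reads were mitochondrial, against 56.5% in cell 71.

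In marked adult cells, cell 29 alone held 64.9% of the Plin2 signal. At equal depth Plin2 was found in 7 of 81 marked adult cells (8.64%, 3.54 to 17.0%), 7 of 58 unmarked adult cells (12.1%, 4.99 to 23.3%) and 14 of 71 pregnancy cells (19.7%, 11.2 to 30.9%). These intervals overlap.

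Xdh (Entrez 22436, chr17:73883895-73950397) encodes an enzyme of purine breakdown that also serves in fat globule secretion. It showed the opposite form of difference. Low levels were spread over many pregnancy cells. After thinning it was found in 22 of 71 pregnancy cells (31.0%, 20.5 to 43.1%), but in 4 of 81 marked adult cells (4.94%, 1.36 to 12.2%) and 1 of 58 unmarked adult cells (1.72%, 0.0436 to 9.24%). The mean was 6.68 CPM in marked adult, 0.847 CPM in unmarked adult and 19.5 CPM in pregnancy cells. The highest values were 291 CPM in marked adult cell 32, 35.4 CPM in unmarked adult cell 151 and 252 CPM in pregnancy cell 56, and the upper quartile of pregnancy cells was 16.1 CPM. The log2 ratio was 0.82 over marked and 1.44 over unmarked adult cells, so it did not pass the fold over both. Cell 71, with its many milk protein reads, had 0 reads of Xdh. Removing it left the ratios at 0.84 and 1.46.

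Btn1a1 (Entrez 12231, chr13:23456984-23465914), whose product binds Xdh at the droplet surface and is abundant in lactating cells, was almost without reads. In total 3 reads were counted in marked adult, 3 in unmarked adult and 1 in pregnancy cells. After thinning it was found in 0 of 71 pregnancy cells. By the limit of 3 counts this leaves room for a share of 4.23%, and by the exact interval for 5.06%. No difference was detectable at this depth, and cell 71 had no read of it.

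Lpl (Entrez 16956, chr8:68880555-68906932) encodes lipoprotein lipase, which releases fatty acids from circulating triglycerides. Its median was 0 in every group. The mean was 40.3 CPM in marked adult, 10.6 CPM in unmarked adult and 10.5 CPM in pregnancy cells. Marked adult cell 7, at 2621 CPM and with 4 core basal genes, held 80.4% of the signal of its set, and unmarked adult cell 120, at 407 CPM, held 65.9%. The highest pregnancy cell reached only 139 CPM. The log2 ratio was -1.30 over marked and -0.01 over unmarked adult cells. Among cells with at least 6 core basal genes the ratios were 0.89 and 0.63, and the order was turned. At equal depth Lpl was found in 22.5% of pregnancy cells (13.5 to 34.0%), 7.41% of marked adult cells (2.77 to 15.4%) and 8.62% of unmarked adult cells (2.86 to 19.0%), so mean and share went in opposite directions over the marked set.

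Cd36 (Entrez 12491, chr5:17781690-17888959) encodes a fatty acid translocase of the plasma membrane, which is found on the milk fat globule and is also strong in capillary endothelium, adipocytes and macrophages. Its range over cells was the widest of the 10 members in both adult sets, but not in pregnancy cells. The median was 0 in marked adult, 12.5 CPM in unmarked adult and 0 in pregnancy cells. The highest values were 8329 CPM (marked adult cell 100), 46847 CPM (unmarked adult cell 169) and 383 CPM (pregnancy cell 57). The means were 112, 1306 and 38.6 CPM. Pregnancy was lower by log2 ratios of -1.33 over marked and -4.76 over unmarked adult cells, and the adult sets themselves differed by 3.43 (unmarked over marked). Cd36 was thus among the 14.9% of genes at least 2-fold higher in the unmarked set. Without the highest cell of each group the means were 9.49, 507 and 33.7 CPM. The ratio over marked adult cells then became 1.16.

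The adult cells with the most Cd36 had few basal genes. Both marked adult cells at 100 CPM or more lay under 6 core basal genes, namely cell 100 with 4 and cell 104 with 5. Among the 76 marked adult cells with at least 6 core basal genes, the highest Cd36 level was 71.8 CPM. In unmarked adult cells, 15 of 58 reached 100 CPM (25.9%, 15.3 to 39.0%), and 10 of these had at least 6 core basal genes, with Cd36 between 112 and 3427 CPM. Cell 169 had 2 core basal genes, and cell 156, at 17703 CPM, had 5. In pregnancy, 9 of 71 cells reached 100 CPM (12.7%, 5.96 to 22.7%), and 8 of them had at least 6 core basal genes.

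Fabp4, a lipid chaperone of capillary endothelium and adipocytes, was high in the same adult cells. It stood at 7085 CPM in marked adult cell 100, 24051 CPM in unmarked adult cell 169 and 19197 CPM in unmarked adult cell 156. The 2 genes went together in pregnancy cells as well. Among cells with Cd36 at 100 CPM or more, Fabp4 reached 100 CPM in 2 of 2 marked adult, 8 of 15 unmarked adult and 7 of 9 pregnancy cells. Below that Cd36 level it did so in 2 of 79, 2 of 43 and 9 of 62 cells. Of 8 endothelial genes, at least 1 had a read in 13 of the 15 unmarked adult cells with Cd36 at 100 CPM or more, and in 16 of the 43 below that level. In pregnancy cells the corresponding numbers were 3 of 9 and 18 of 62. Across cells the summed level of the 8 endothelial genes ran from 0 to 71.8 CPM in marked adult, 0 to 7599 CPM in unmarked adult and 0 to 178 CPM in pregnancy cells. Cell 100 had 0 of 8 immune and 0 of 8 endothelial genes at 100 CPM. The summed level of 8 adipocyte genes reached at most 332 CPM in marked adult, 85.1 CPM in unmarked adult and 789 CPM in pregnancy cells, and Adipoq, the defining adipocyte marker, had 0 reads in all 3 groups. Among cells with no read in any endothelial gene, a restriction chosen after the values were seen, the Cd36 means were 2.28 CPM in 73 marked adult, 18.9 CPM in 29 unmarked adult and 35.0 CPM in 50 pregnancy cells. The log2 ratios were then 1.87 and 0.64, and pregnancy was the highest group. Among cells with at least 6 core basal genes the ratios were 1.81 over marked and -2.20 over unmarked adult cells. The part of other cell types in the Cd36 values was not tested.

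**Figure D3:**
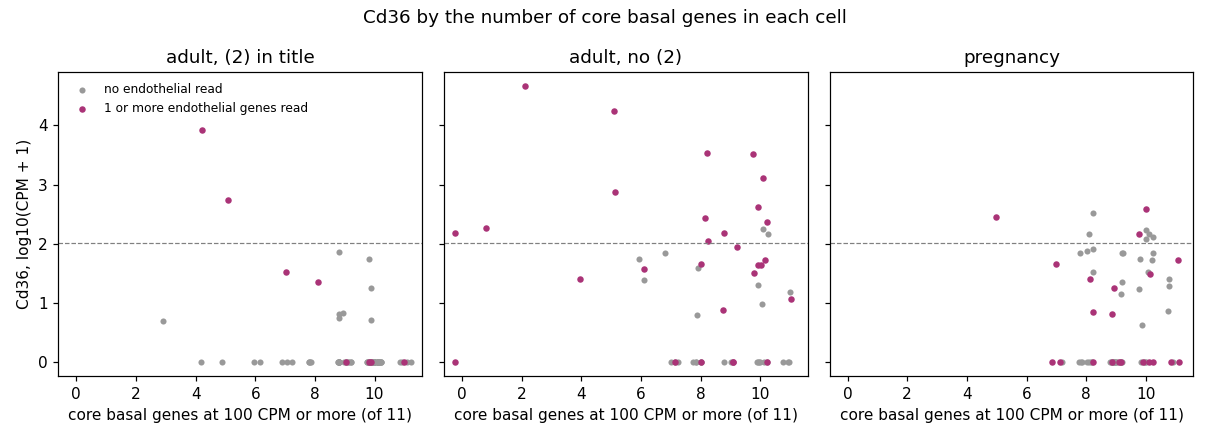
Cd36 level of each retained cell, as log10 of CPM plus 1, against the number of the 11 core basal genes at 100 CPM or more, in marked adult, unmarked adult and pregnancy cells. Purple points are cells with a read in at least 1 of 8 endothelial genes, the dashed line marks 100 CPM, and the highest adult cells (8329 and 46847 CPM) have 4 and 2 core basal genes.

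At equal depth the order of Cd36 was different from that of its mean. It was found in 29 of 58 unmarked adult cells (50.0%, 36.6 to 63.4%), 27 of 71 pregnancy cells (38.0%, 26.8 to 50.3%) and 6 of 81 marked adult cells (7.41%, 2.77 to 15.4%). The marked adult share lay below the other 2 intervals, which overlapped each other. Between the adult sets, Cd36 was the only member with intervals apart, in a direction that 1.13% of genes shared, while 0.527% had the unmarked share below. By mean, Lpl (-1.28) and Fasn (-1.48) were at least 2-fold lower in unmarked than in marked adult cells, as were 17% of genes tested.

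Fabp3 (Entrez 14077, chr4:130308738-130315463), the fatty acid binding protein of heart and lactating gland, was low in all groups. Its mean was 4.26 CPM in marked adult, 1.39 CPM in unmarked adult and 17.0 CPM in pregnancy cells. Cell 71, at 835 CPM, supplied 69.1% of the pregnancy signal, and without it the mean was 5.33 CPM. The log2 ratios were 0.92 over marked and 1.25 over unmarked adult cells with it, and 0.10 and 0.43 without it. Reads were found at equal depth in 10 of 71 pregnancy cells (14.1%, 6.97 to 24.4%), 3 of 81 marked adult cells (3.70%, 0.770 to 10.4%) and 2 of 58 unmarked adult cells (3.45%, 0.420 to 11.9%).

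Acly (Entrez 104112, chr11:100476352-100528000) encodes ATP citrate lyase, which makes the acetyl-CoA from which fatty acids are built. It had reads in more adult cells than most members. The mean was 82.5 CPM in marked adult, 43.8 CPM in unmarked adult and 48.0 CPM in pregnancy cells, with highest values of 1951 CPM (cell 100), 752 CPM (cell 167) and 345 CPM (cell 56). The median was 0 in both adult sets and 12.7 CPM in pregnancy. These medians were not taken at equal depth, and pregnancy cells had the most reads. At 100 CPM or more, the shares were 18.3% in pregnancy, 18.5% in marked adult and 8.62% in unmarked adult cells, with overlapping intervals. The log2 ratio was -0.67 over marked and 0.11 over unmarked adult cells. The shares of cells were 47.9% in pregnancy (35.9 to 60.1%), 33.3% in marked adult (23.2 to 44.7%) and 31.0% in unmarked adult cells (19.5 to 44.5%), with overlapping intervals.

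Fasn (Entrez 14104, chr11:120805958-120825166), the synthase that assembles palmitate, showed no common direction. Its mean was 38.0 CPM in marked adult, 7.19 CPM in unmarked adult and 21.8 CPM in pregnancy cells, with highest values of 983 CPM (cell 77), 113 CPM (cell 228) and 707 CPM (cell 69). The log2 ratio was -0.59 over marked and 0.89 over unmarked adult cells. The shares at equal depth were 17.3% (9.78 to 27.3%), 17.2% (8.59 to 29.4%) and 15.5% (8.00 to 26.0%) in marked adult, unmarked adult and pregnancy cells. A difference in share was thus not detectable at this depth, and cell 71 had 0 reads of Fasn.

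Scd1 and Scd2 encode stearoyl-CoA desaturases, which place the first double bond into saturated fatty acids. They are neighbours on chromosome 19 and close in sequence, which bears on how well reads of 75 bases separate them. The pair of stretches below comes from the coding part of a GENCODE vM21 transcript of each gene (GRCm38), positions 793 to 999 of the Scd1 and 1216 to 1422 of the Scd2 transcript. Capitals mark the longest run that both share, 147 bases, and 2 bases differ in the 30 bases on either side.
Scd1: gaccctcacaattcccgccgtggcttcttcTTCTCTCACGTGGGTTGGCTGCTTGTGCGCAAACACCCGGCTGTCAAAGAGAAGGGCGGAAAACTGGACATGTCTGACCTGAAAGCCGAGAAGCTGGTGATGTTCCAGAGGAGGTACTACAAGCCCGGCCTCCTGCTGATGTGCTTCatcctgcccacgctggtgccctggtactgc
Scd2: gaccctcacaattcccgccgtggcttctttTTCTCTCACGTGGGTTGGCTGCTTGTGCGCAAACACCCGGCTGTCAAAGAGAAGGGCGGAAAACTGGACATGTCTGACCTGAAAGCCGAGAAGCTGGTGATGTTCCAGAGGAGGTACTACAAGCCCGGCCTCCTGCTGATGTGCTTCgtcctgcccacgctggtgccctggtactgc
In all, 79 of the 4758 windows of 75 bases in the Scd1 transcript (1.66%) and 79 of 5381 in the Scd2 transcript (1.47%) are shared, so most positions of the pair are told apart by a read of that length. Of the other family members, Scd3 shares 111 windows of the Scd1 transcript (2.33%) with a longest run of 185 bases, and Scd4 shares 42 (0.883%). The study sequenced read pairs, some with longer reads, so these windows describe single reads of 75 bases and not the counted pairs. How reads from shared positions were counted is not stated.

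Scd1 (Entrez 20249, chr19:44394450-44407709) was the member found in the most pregnancy cells. After thinning it was found in 50 of 71 pregnancy cells (70.4%, 58.4 to 80.7%), 20 of 58 unmarked adult cells (34.5%, 22.5 to 48.1%) and 15 of 81 marked adult cells (18.5%, 10.7 to 28.7%). Its pregnancy median, at 34.2 CPM, was the highest of the 10 members, before Acly at 12.7 CPM, while the median was 0 in both adult sets. The means lay closer together, at 67.3 CPM in pregnancy, 55.5 CPM in unmarked adult and 29.8 CPM in marked adult cells. The highest single values were of similar size in the 3 groups, at 552 CPM (cell 23), 723 CPM (cell 159) and 783 CPM (cell 80). The log2 ratio was 0.96 over marked and 0.24 over unmarked adult cells, and 0.93 and 0.21 without cell 71. Among cells with no read in the 8 endothelial genes it was 1.16 and 1.12, past the fold over both. Scd1 was thus a gene whose reads were spread over more cells in pregnancy, with no 2-fold difference in mean over both adult sets. At 100 CPM or more, the shares were 15.5% in pregnancy (8.00 to 26.0%), 15.5% in unmarked adult (7.35 to 27.4%) and 6.17% in marked adult cells (2.03 to 13.8%), so at this level the share was no higher than in unmarked adult cells, and the interval overlapped that of marked adult cells.

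Scd2 (Entrez 20250, chr19:44293676-44306864) did not follow its neighbour. Its means were 30.9 CPM in marked adult, 44.9 CPM in unmarked adult and 30.7 CPM in pregnancy cells, with log2 ratios of -0.01 and -0.43. Unmarked adult cell 152, at 2183 CPM, held 83.8% of its set, and without it the mean of the other cells was 7.42 CPM. The shares at equal depth were 16.0% in marked adult (8.83 to 25.9%), 15.5% in unmarked adult (7.35 to 27.4%) and 29.6% in pregnancy cells (19.3 to 41.6%).

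**Figure D4:**
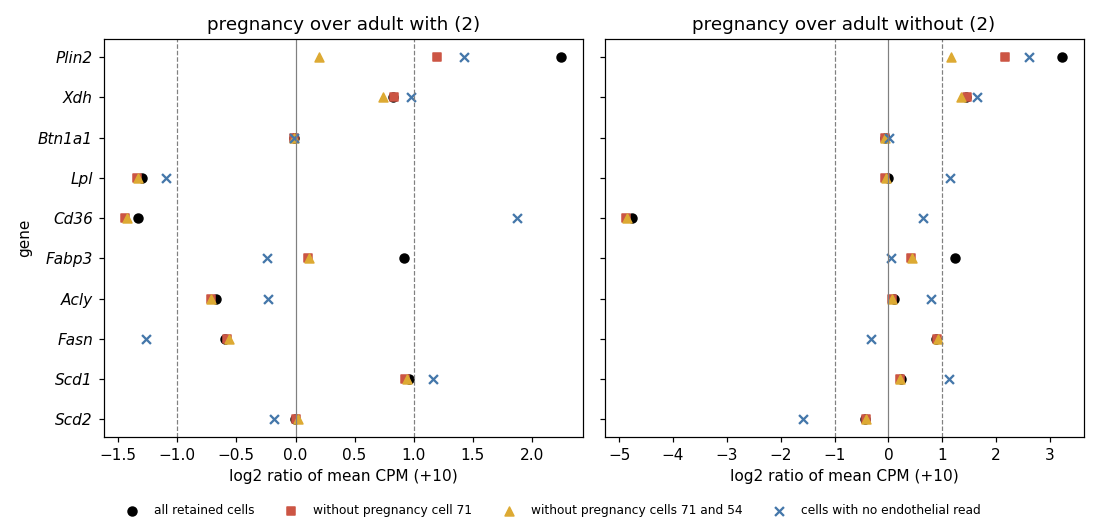
Pregnancy over marked adult cells (left) and over unmarked adult cells (right), as the log2 ratio of mean CPM of the 10 genes, with 10 CPM added to each mean and dashed lines at 2-fold. Black circles are all retained cells, red squares leave out pregnancy cell 71, yellow triangles leave out cells 71 and 54, and blue crosses keep cells with no read in 8 endothelial genes. Plin2 moves from 2.24 to 0.19 over marked adult cells without cells 71 and 54, and Cd36 changes sign in cells with no endothelial read.

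Levels of different genes were compared per length, as mean CPM per kilobase of exon (RPKM). In pregnancy cells without cell 71, the order was Plin2 at 25.2, Scd1 at 13.6, Acly at 10.5, Cd36 at 8.93, Fabp3 at 8.33, Scd2 at 5.70, Xdh at 4.31, Lpl at 2.43, Fasn at 2.22 and Btn1a1 at 0.0284 RPKM. With cell 71, Plin2 stood at 57.8 and Fabp3 at 26.6 RPKM. In marked adult cells Cd36 (28.6 RPKM) and Acly (18.6 RPKM) came first, and in unmarked adult cells Cd36 (332 RPKM) and Scd1 (11.5 RPKM). The spread over cells within a group was larger than the steps between neighbours in each order.

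Together the 10 genes took a small part of the RNA. They held 0.0444% of assigned reads in marked adult (0.0433 to 0.0455%), 0.122% in unmarked adult (0.119 to 0.125%) and 0.0349% in pregnancy cells (0.0340 to 0.0358%). Cd36 had 2809 of the 6667 member reads in marked adult, 7352 of 8572 in unmarked adult and 549 of 5716 in pregnancy cells. Without it the shares were 0.0257%, 0.0174% and 0.0315%, and the pregnancy share without cell 71 as well was 0.0255%. By cell, the median share of the 10 genes was 0.00618% in marked adult, 0.00937% in unmarked adult and 0.0189% in pregnancy cells. Pregnancy was thus the lowest group by sum and the highest by the median cell. The highest cells had 1.03% (marked adult cell 100), 4.68% (unmarked adult cell 169) and 0.592% (pregnancy cell 71).

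At equal depth the median cell held 1 member in marked adult (rank interval 1 to 1), 1 in unmarked adult (1 to 2) and 3 in pregnancy cells (2 to 3). No member was found in 28 of 81 marked adult, 11 of 58 unmarked adult and 1 of 71 pregnancy cells. At least 3 members were found in 11, 14 and 43 cells of these groups, which is 13.6%, 24.1% and 60.6%. Other measures moved with the groups. Besides the larger number of genes per pregnancy cell, the median mitochondrial share was 9.65%, 15.6% and 18.4% in marked adult, unmarked adult and pregnancy cells. At least 3 of 14 proliferation genes reached 100 CPM in 2, 3 and 20 cells, and the median summed level of 8 fibroblast genes was 0, 28.8 and 561 CPM. Their part in the result was not tested. The most members in a cell were 7, in unmarked adult cell 155, which also had 10 core basal, 4 milk protein and 5 of 8 fibroblast genes at 100 CPM or more.

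**Figure D5:**
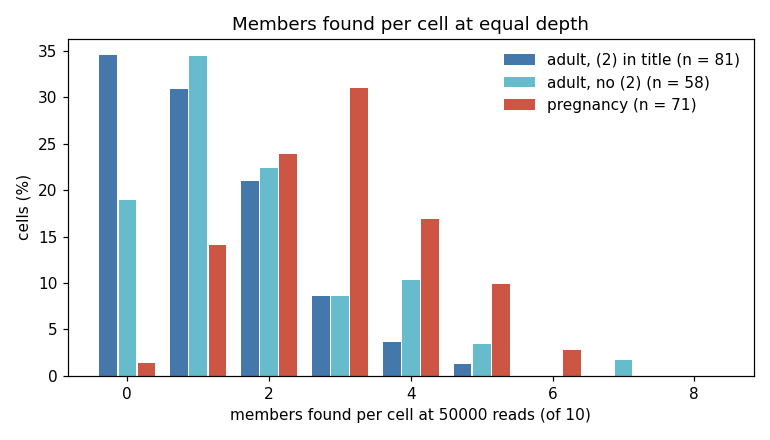
Percentage of cells by the number of the 10 members found after thinning to 50000 reads per cell, for 81 marked adult (dark blue), 58 unmarked adult (light blue) and 71 pregnancy cells (red). The median is 1 in both adult sets and 3 in pregnancy, and 1 of 71 pregnancy cells has none.

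Among pregnancy cells, most pairs of members were weakly correlated. Over the 70 pregnancy cells without cell 71, the Spearman rho of thinned reads over the 36 pairs of members with reads had a median of -0.06 and ran from -0.28 to 0.44. The highest pair was Xdh with Acly, both found in 18 cells, where Xdh was found in 22 and Acly in 33. The next was Lpl with Cd36 (rho of 0.36), both found in 10 cells. These are descriptions over sparse reads of cells whose animals are not named, and no test was made. Scd1 alone was found in enough pregnancy cells to ask which other genes were most like it. Of 2130 genes compared over the same 70 cells, the highest rho was that of Man1a (0.48), followed by Auts2 (0.46) and Tra2b (0.46), around a median of -0.000714. The corresponding rho in marked adult cells was 0.14, 0.23 and -0.13, and in unmarked adult cells 0.17, 0.18 and 0.04. These genes were picked as the highest of 2130, and whether their rho exceeds what such a pick gives was not tested.

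Pregnancy cell 71 differed in which members it carried. It was the highest pregnancy cell for Plin2 (4415 CPM, 809 reads) and for Fabp3 (835 CPM, 153 reads). It held Cd36 at 284 CPM, Scd1 at 175 CPM, Acly at 153 CPM and Lpl at 54.6 CPM, and 1 read of Scd2. Xdh, Fasn and Btn1a1 had 0 reads in it.

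The other genes of the pathway were taken from 6 lists with 93 genes, of which 60 reached a mean of 10 CPM. Of these 60, 4 were past the fold as higher in pregnancy and 1 as lower, beside the background of 9.83% and 4.72%, and the same counts were found without cell 71. The median log2 ratio of the 60 was -0.14 over marked and 0.01 over unmarked adult cells, beside 0.08 and 0.13 over all genes tested. In uptake and activation, 2 of 11 tested genes were higher, Vldlr and Acsl1. In triglyceride assembly 1 of 9 was higher (Agpat3), and in cholesterol synthesis 1 of 15 (Dhcr7). Acsl1 was low, with means of 7.96 CPM in marked adult, 6.61 CPM in unmarked adult and 28.3 CPM in pregnancy cells. The means of Dhcr7 were 0.0670, 1.18 and 12.7 CPM. At equal depth they were found in 14.1% and 16.9% of pregnancy cells. Neither stayed past the fold with summed reads, CPM over all gene IDs or without the highest cell of each group. In synthesis and elongation 1 of 10 was lower (Elovl1). None of 7 droplet and globule genes and none of 8 regulators was past the fold.

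Vldlr, the receptor for very low density lipoproteins that works beside lipoprotein lipase in fatty acid uptake, was the clearest of these. Its mean was 21.3 CPM in marked adult, 13.6 CPM in unmarked adult and 182 CPM in pregnancy cells, with log2 ratios of 2.62 and 3.02. The median was 0 in both adult sets and 65.0 CPM in pregnancy, and the highest values were 463, 144 and 2006 CPM. At equal depth it was found in 81.7% of pregnancy cells (70.7 to 89.9%), 16.0% of marked adult cells (8.83 to 25.9%) and 29.3% of unmarked adult cells (18.1 to 42.7%). Cell 11, the highest in pregnancy, held 15.5% of the signal, so the difference did not rest on single cells.

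Agpat3, an acyltransferase that makes phosphatidic acid, had means of 27.6, 5.04 and 122 CPM in marked adult, unmarked adult and pregnancy cells, with log2 ratios of 1.81 and 3.14. It was found at equal depth in 33.8% of pregnancy cells (23.0 to 46.0%), beside 13.6% (6.98 to 23.0%) of marked and 5.17% (1.08 to 14.4%) of unmarked adult cells. Elovl1, an elongase of very long chain fatty acids, was lower, with means of 183, 295 and 43.9 CPM and log2 ratios of -1.84 and -2.50. Of its pregnancy signal, 71.3% came from cell 54. Among cells with no endothelial read its ratios were -1.81 and -0.72, so it was no longer past the fold over both sets. By share of cells at equal depth, 7 of the 60 pathway genes had a pregnancy interval wholly above the intervals of both adult sets and 0 had one wholly below, beside 10.5% and 0.258% of all genes. The 7 were Vldlr, Mfge8, Mgll, Fitm2, Hmgcs1, Cyp51 and Lss. Mfge8, a milk fat globule protein, was found in 98.6% of pregnancy cells, 59.3% of marked adult and 81.0% of unmarked adult cells, but its mean of 974 CPM in pregnancy lay between the adult means of 333 and 1505 CPM.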

How the data were processed

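The authors aligned read pairs to mm10 with Subread (1.5.0 in the submitters' processing notes) and counted them per gene with featureCounts (RefSeq annotation supplied with Rsubread). The deposited values are raw counts of read pairs per Entrez gene and cell, for 27179 identifiers with exon lengths, without molecular identifiers. Use of strand is not stated. Identifiers without a symbol (1904), 15 mitochondrial and 124 ribosomal protein genes were left out. The study relaxed its filter to 50000 read pairs and 1000 genes for adult basal cells and for epithelial cells of pregnant mice, and that filter was applied here. CPM and thinned counts were computed with numpy 2.4.6, pandas 2.3.3 and scipy 1.17.1. Shares of cells and reads have exact Clopper-Pearson intervals at 95%, and member medians have binomial rank intervals. No count model was fitted, because each group is 1 sample. A share of 0 is given with the limit of 3 counts. The fold rule and the thinning were run on counts simulated from a single pooled profile, with counting error only and changes above the 2-fold limit. The simulation held no spread between cells, so it cannot show how the rule behaves where few cells set a mean. Cells of more than 1 lineage were kept, and no doublet caller was run. Symbols and positions come from RefSeq for GRCm38, the same assembly as mm10.

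The members and gene lists were chosen with earlier results of these data known. Besides the 10 members, pathway genes were named if past the fold against both adult sets with and without cell 71, averaging at least 50 CPM and found after thinning in at least 25% of cells in the higher stage. Acsl1, Dhcr7, Mfge8 and the other genes of counts were named after their values were seen. The most alike genes were the 3 with the highest rho, among genes that averaged at least 50 CPM and were found in at least 50% of pregnancy cells. Lists of basal, luminal and milk protein markers, and of endothelial, adipocyte, immune, fibroblast and pericyte markers, were read beside the members.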

Additional observations from a re-analysis of the deposited data

Results flagged for a closer look

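Reads of the 10 members were also counted in cells that the filter left out, which no comparison used, and their share of assigned reads lay above the limit that a count of 0 allows. It was 0.00530% in the 31 left-out marked adult cells (24 reads), 0.273% in the 67 left-out unmarked adult cells (1963 reads) and 0.146% in the 4 left-out pregnancy cells (137 reads).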

How the results depend on the processing

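Counts of genes past the fold moved by over 1.5 times under several settings. No share over all genes stands beside the counts of these settings, so they cannot be set against a background. The members counted as higher in pregnancy were 3 with a pseudocount of 1 CPM or a 1.5-fold limit, 2 with scaling to 238 widely found genes or in cells with no endothelial read, and 0 with a pseudocount of 100 CPM, with means of log2 values or without pregnancy cells 71 and 54. The members counted as lower were 0 with a pseudocount of 100 CPM, means of log2 values, at least 6 core basal genes, no endothelial read, or without the highest cell of each group. The pathway genes counted as higher were 9 at 1.5-fold, 8 with a pseudocount of 1 CPM, 2 with summed reads or with CPM over all gene IDs, and 1 with a pseudocount of 100 CPM. Those counted as lower were 8 with a pseudocount of 1 CPM, 6 at 1.5-fold, 3 with at least 100000 reads and 1500 genes, 2 with few luminal and milk protein genes or with no endothelial read (Slc25a1 and Nr1h2 there, without Elovl1), and 0 with a pseudocount of 100 CPM or means of log2 values. Among those counted with a pseudocount of 1 CPM, Acacb, Mogat1, Mogat2 (higher) and Elovl7 (lower) were outside the 60 tested genes. Their means lay below 10 CPM in adult and in pregnancy cells.

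The log2 ratio of Lpl over marked adult cells turned to 0.66 with at least 100000 reads and 1500 genes, 0.89 with at least 6 core basal genes, 0.30 with means of log2 values and 0.048 without the highest cells. That of Cd36 turned to 1.81 with at least 6 core basal genes, 1.87 with no endothelial read, 0.86 with means of log2 values and 1.16 without the highest cells, and over unmarked adult cells to 0.64 with no endothelial read. CPM over all gene IDs shifted the median ratio of all genes tested by -0.16 over marked and -0.08 over unmarked adult cells.

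The share of reads in the 10 members was 0.0285% in unmarked adult cells with at least 100000 reads and 1500 genes. With at least 6 core basal genes it was 0.0211% in marked adult, 0.0335% in unmarked adult and 0.0286% in pregnancy cells, and with no endothelial read 0.0208%, 0.0202% and 0.0282%. With few luminal and milk protein genes it was 0.0467% in marked adult and 0.0276% in pregnancy cells. It was 0.0286% in pregnancy without cell 71 and 0.0253% without cells 71 and 54. Over all gene IDs it was 0.0385%, 0.0942% and 0.0258%. Without thinning, the median pregnancy cell held 4 members.

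The settings with no endothelial read and without cells 71 and 54 were chosen after seeing the data, and apart from what the subsets themselves remove, the cause was not tested. No paired analysis was possible because the cell numbers only name cells and no test was run. Precision is limited by single reads. In most cells a member has 0 reads, so a group mean can rest on 1 or 2 cells.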
